A study of Arabidopsis thaliana with 14 samples.

Results

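HYH (HY5-homolog, locus AT3G17609) is 1 gene, followed here over all 14 arrays of the study. The platform annotation pairs 1 probe set, 258349_at, with HYH alone, out of 22746 probe sets without controls and 13513 that carry a single gene. No other probe set names HYH, alone or among several genes. The gene is protein coding and lies on chromosome 3, between IAA31 and RBL14 in the TAIR10.1 gene table, where it has 4 transcripts. The probe set gives 1 summed signal, so these transcripts cannot be told apart.

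The arrays measured RNA from primary dormant Arabidopsis thaliana seed imbibed for 24 h. The 4 groups were ga1-3 seed on KAR1 (3 arrays), ga1-3 seed on water (3 arrays), wild type seed on KAR1 (4 arrays) and wild type seed on water (4 arrays). KAR1 is a karrikin, a butenolide of smoke that promotes germination of dormant seed, and was given at 1 uM. All seed, on water as on KAR1, was collected from plants under continuous light, stored frozen to keep its dormancy, and imbibed on 0.8% agar at 20 C under white light of 100 uE. The wild type is Landsberg erecta, while for ga1-3 the labels used here give a genotype and no ecotype. The mutant ga1-3 lacks a working GA1, the enzyme of the first committed step of gibberellin synthesis, and cannot germinate without added gibberellin, so its seed shows what KAR1 does where germination cannot follow. Each letter names a separate harvest of seed, A to C in ga1-3 and A to D in wild type, split between KAR1 and water; the same letter in both genotypes is different seed.

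HYH is a bZIP transcription factor and the closest relative of HY5, the factor that promotes seedling greening and restrains stem growth in light. Both bind DNA as dimers, alone or together, at promoters of light-responsive genes, and both are marked for degradation in darkness by the COP1 ubiquitin ligase with its SPA partners and the CUL4-based machinery. Red light seen by phytochromes and blue light seen by cryptochromes relieve that degradation. HYH overlaps with HY5 in function and its own transcript is raised by light. Seed of this species germinates after light acting through phytochrome, and genetic work on karrikins has tied part of the seedling response to HY5.

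HYH was higher on KAR1 than on water in every one of the 7 seed batches, by 1.34-fold to 1.91-fold, in seed that can germinate and in seed that cannot. In ga1-3 seed on KAR1 the log2 intensity of HYH was 7.34 in batch A, 7.02 in batch B and 6.97 in batch C. In ga1-3 seed on water it was 6.67 in batch A, 6.48 in batch B and 6.46 in batch C. Each KAR1 array of ga1-3 lay above each water array of ga1-3, with no overlap, as for 1.93% of all probe sets, and batch A was the highest in both treatments. In wild type seed on KAR1 it was 7.57 in batch A, 7.38 in batch B, 6.92 in batch C and 7.02 in batch D. In wild type seed on water it was 7.09 in batch A, 6.60 in batch B, 6.50 in batch C and 6.08 in batch D. The wild type groups overlapped, because batch A on water stood above batches C and D on KAR1, but within a batch the KAR1 array was always the higher one. All 14 values lay at an intensity of 67.8 or more, above the 16 under which signals of these arrays were treated as low.

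**Figure D1:**
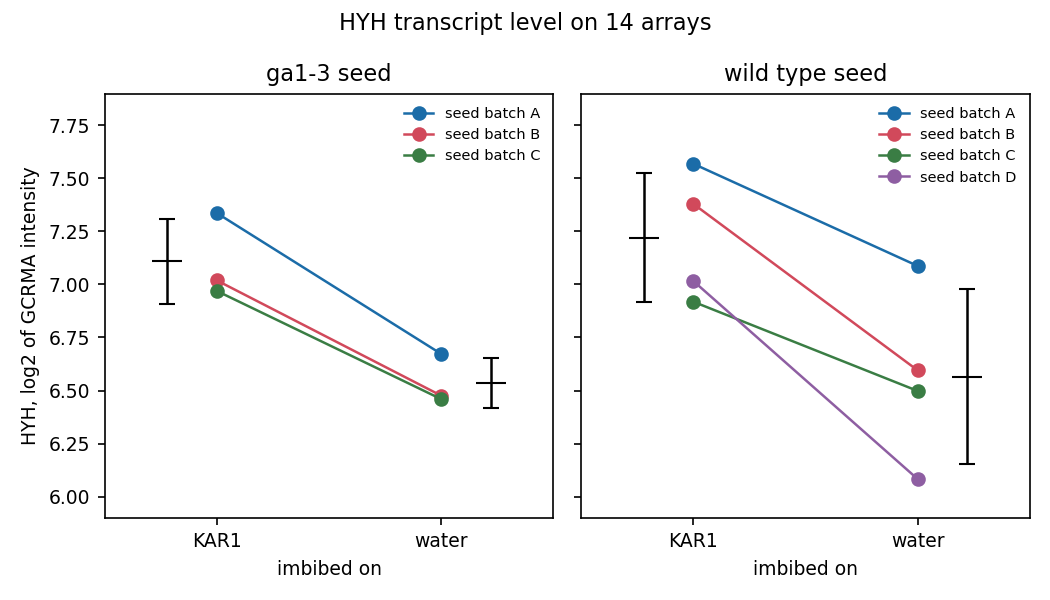
The plot shows the log2 intensity of HYH (vertical axis) on KAR1 and on water, for ga1-3 seed (left panel, 3 seed batches) and wild type seed (right panel, 4 seed batches). Each line joins the arrays of 1 seed batch, and the bars beside them are group means with SD; all 7 lines are higher at KAR1, and wild type batch A is the highest on both treatments.

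As group means, HYH stood at a log2 intensity of 7.11 ± 0.20 (SD, n = 3) in ga1-3 on KAR1, against 6.54 ± 0.12 (SD, n = 3) in ga1-3 on water. In wild type it stood at 7.22 ± 0.31 (SD, n = 4) on KAR1, against 6.57 ± 0.41 (SD, n = 4) on water. On the linear scale the geometric mean intensities were 138 on KAR1 and 92.8 on water in ga1-3, and 149 on KAR1 and 94.8 on water in wild type. The order by mean was therefore wild type on KAR1, ga1-3 on KAR1, wild type on water and ga1-3 on water. The first 2 differ by less than either SD, and so do the last 2, while the step between ga1-3 on KAR1 and wild type on water exceeds the SD of both, although wild type batch A on water, at 7.09, lay above 2 of the 3 ga1-3 arrays on KAR1.

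The KAR1 minus water difference of HYH within a seed batch was 0.66 in batch A, 0.54 in batch B and 0.51 in batch C of ga1-3. In wild type it was 0.48 in batch A, 0.78 in batch B, 0.42 in batch C and 0.93 in batch D. The 3 ga1-3 batches were close together (mean 0.57 ± 0.08, SD, n = 3) and the 4 wild type batches were spread more widely on both sides of them (mean 0.66 ± 0.24, SD, n = 4). Over all 7 batches the mean difference was 0.62 ± 0.18 (SD, n = 7).

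Differences were tested with limma on all 22746 probe sets and adjusted by the Benjamini-Hochberg method, a call being an adjusted p under 0.05. Without regard to which arrays share their seed, the KAR1 effect on HYH, averaged with equal weight per genotype, was 0.61 ± 0.16 (SE; 95% interval 0.27 to 0.96; limma, adjusted p = 0.663) and did not pass. This comparison called 0.022% of all probe sets, 0.0176% as higher and 0.0044% as lower. With the seed batch as a block, which sets each KAR1 array against the water array of its own seed, the estimate was the same and the SE was 0.07 (95% interval 0.44 to 0.79; limma, adjusted p = 0.0386), so that HYH passed. HYH ranked 33 by p in that fit, which called 0.378% of all probe sets, 0.286% as higher on KAR1. Flipping the sign of the 7 paired differences gave an exact permutation p of 0.0156 (two-sided, higher in 7 of 7 batches), the smallest that 7 pairs allow. Among all probe sets, 2.26% were above water in all 7 batches, and 0.145% (33 probe sets) were above it in all 7 by at least the 0.42 of the smallest HYH difference. That cut-off was taken from HYH, so HYH is among the 33 by construction. The share also counts probe sets of low signal, since 10706 of the 22746 had a mean log2 intensity of 4 or more.

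The call with the block did not hold in most fits with fewer seed batches. When 1 of the 7 batches was left out with the block, the HYH effect lay between 0.57 and 0.65 and its adjusted p in limma between 0.0407 and 0.148. It passed in 1 of these 7 fits, the one without wild type batch A (0.64). That fit called 86 of the 22746 probe sets, and the fit without wild type batch B called 41. Every other fit of the 7 called none, so no gene could pass there. The same holds for the counts out of these 7 fits given below for other genes.

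Neither genotype passed alone. In ga1-3 the KAR1 effect on HYH was 0.57 ± 0.24 (SE) without the block (limma, adjusted p = 1) and 0.57 ± 0.11 with it (95% interval 0.31 to 0.84, adjusted p = 0.252). In wild type it was 0.66 ± 0.20 without the block (limma, adjusted p = 1) and 0.66 ± 0.10 with it (95% interval 0.43 to 0.88, adjusted p = 0.134). In the fits without block no probe set passed in either genotype, and with the block 0.0132% passed in ga1-3, all as higher, and none in wild type. Exact sign flips cannot go below p = 0.25 for 3 ga1-3 batches or 0.125 for 4 wild type batches, and those were the values obtained (two-sided, higher in 3 of 3 and 4 of 4). Of all probe sets, 8.49% were above water in all 3 ga1-3 batches and 5.59% in all 4 wild type batches.

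The size of the HYH response did not differ detectably between seed that cannot germinate and seed that can. The effect in ga1-3 minus the effect in wild type was -0.08 ± 0.31 (SE; 95% interval -0.77 to 0.60; limma, adjusted p = 1) without the block. With the block it was -0.08 ± 0.15 (95% interval -0.43 to 0.26; limma, adjusted p = 1.00), and exchanging the genotype labels of the 7 differences gave an exact permutation p of 0.686, two-sided. No probe set at all passed in this comparison, with or without the block. The interval with the block leaves room for a response in ga1-3 that is smaller by 0.43 or larger by 0.26, and the missed threshold does not show that the responses are equal.

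No difference in HYH between ga1-3 and wild type seed was detected, in comparisons that called a large share of the array. On water, ga1-3 minus wild type was -0.03 ± 0.22 (SE; 95% interval -0.51 to 0.45; limma, adjusted p = 0.924), where 36.5% of all probe sets were called. On KAR1 it was -0.11 ± 0.22 (95% interval -0.60 to 0.37; limma, adjusted p = 0.704), where 37.6% were called. Averaged over treatments it was -0.07 ± 0.16 (95% interval -0.41 to 0.27, limma adjusted p = 0.708), against 55.1% called, a share that counts the paired arrays of a seed batch as independent. The shares on water and on KAR1 also rest on a spread pooled over the paired arrays, so they may be too large. Exact permutation of the genotype labels over the 7 seed batches gave p of 0.857 on water, 0.686 on KAR1 and 0.914 for the mean, all two-sided, with 0.0571 the smallest that 35 arrangements allow.

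The sign of that genotype difference turned when clusters of arrays were taken as a block. The arrays were cut into 3 clusters by their spiked-in control transcripts, with the number set by choice, and no label names these clusters. The first holds wild type batches A and B. The second holds ga1-3 batch A together with wild type batches C and D, and the third ga1-3 batches B and C. With the cluster as a block, HYH in ga1-3 minus wild type was 0.42 on water (limma, adjusted p = 0.144), 0.33 on KAR1 (0.241) and 0.38 for the mean (0.101). Inside the second cluster, ga1-3 batch A stood at 6.67 on water against a mean of 6.29 for wild type C and D, a difference of 0.38, and at 7.34 on KAR1 against 6.97, a difference of 0.37. These rest on 1 ga1-3 array per treatment and carry no test. The first cluster holds wild type and the third ga1-3 alone, so there genotype and cluster cannot be told apart. The genotype estimates with the cluster as block therefore rest on the second cluster, and their p-values do not measure the spread between ga1-3 harvests. The KAR1 effect on HYH did not turn in this way, at means of 0.63 in the first cluster (2 batches), 0.67 in the second (3 batches) and 0.53 in the third (2 batches).

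**Figure D2:**
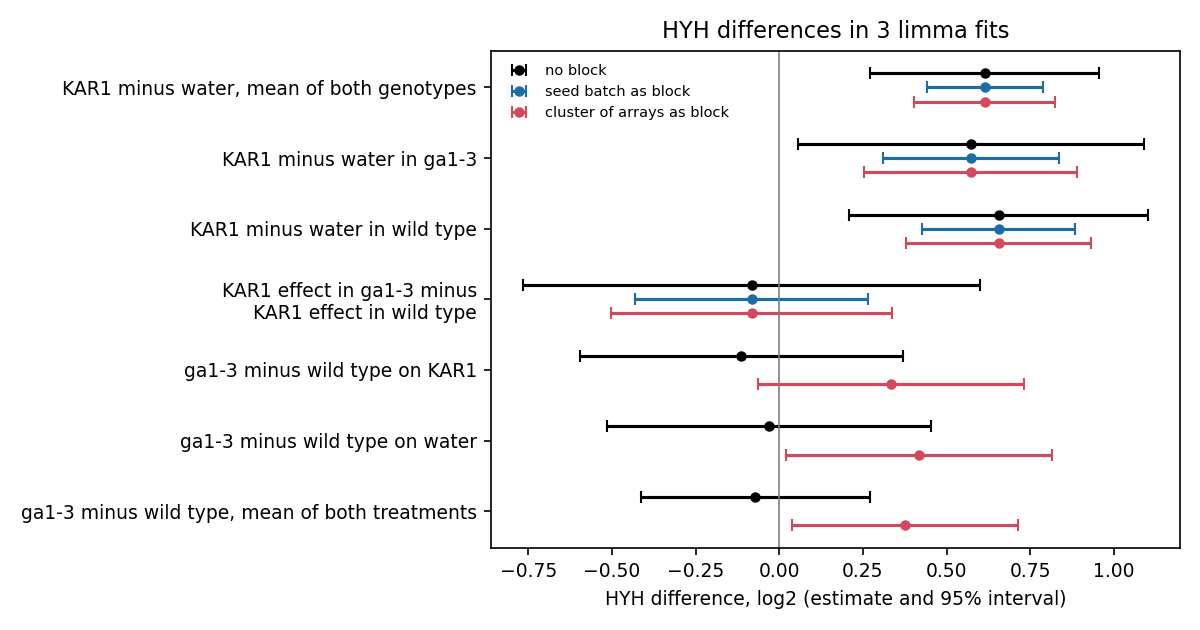
The plot gives each HYH difference (rows) as an estimate with its 95% interval on the log2 scale, from limma without block, with the seed batch as block, and with the cluster of arrays as block. The KAR1 estimates stay at 0.61, 0.57 and 0.66 with narrower intervals under a block. The ga1-3 minus wild type estimates lie below 0 without a block and above 0 with the cluster as block. The only cluster with both genotypes holds 1 ga1-3 harvest, so those intervals do not measure the spread between ga1-3 harvests. The seed batch is nested in genotype and gives no genotype estimate.

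Treatment took the largest part of the variation of HYH in both genotypes, and harvest took a larger part in wild type than in ga1-3. Of the sum of squares of its 6 log2 values in ga1-3, treatment held 82.1%, seed batch 16.8% and the remainder 1.10%. Of its 8 values in wild type, treatment held 52.1%, seed batch 42.5% and the remainder 5.44%. Wild type batch A, where HYH was highest on both treatments, also stood apart in its plastid-encoded transcripts, whose median over 69 probe sets was 2.01 above the mean of all arrays on KAR1 and 2.14 above it on water (log2). The other wild type arrays lay between -0.42 and 0.50, and the ga1-3 arrays between -1.13 and -0.24. The part of this in the HYH level was not tested; the KAR1 minus water difference of batch A, 0.48, lay inside the range of the other 3 wild type batches. RNA came from whole seed, so fewer cells of a type and less RNA per cell cannot be told apart.

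Few of the genes that act with HYH could be looked up. The lists held 76 light genes in 4 classes, and the annotation gave a probe set of their own to 10 of them. These are 1 of 18 in the HY5 and HYH module, 4 of 21 photoreceptors and their regulators and 3 of 20 genes known as HY5 targets. The class of other light transcription factors gave 2 of 17, COR27 and COR28, which are regulators that bind HY5. No other member of that class was measured. None of 7 karrikin signalling genes was named. HY5, COP1, the phytochromes and the cryptochromes are therefore not reported here. Without the block, 0 of the 10 passed for the mean KAR1 effect in either direction. With the block 3 passed as higher and 1 as lower, beside 0.286% and 0.0923% of all probe sets. Earlier results of these data were known when the lists were chosen, so these counts are not independent support.

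Among photoreceptor regulators, 3 of the 4 measured genes were called higher on KAR1 with the block. The median effect of the 4 was 0.75, against a median of 0.00 over all probe sets. The list was chosen with earlier results of these data known, so this difference is not independent support. BIC1 and BIC2 encode inhibitors that bind cryptochromes and keep them from pairing under blue light. BIC1 stood at 8.30, 8.58 and 8.52 (log2) in ga1-3 batches A to C on KAR1, against 7.54, 7.99 and 7.99 on water. In wild type batches A to D it stood at 7.96, 7.91, 7.76 and 7.74 on KAR1, against 7.30, 7.52, 6.96 and 6.97 on water. The KAR1 arrays of BIC1 lay above the water arrays in both genotypes with no overlap. Over all probe sets that held for 1.93% in ga1-3 and for 0.528% in wild type. The effect on BIC1 was 0.64 ± 0.11 (SE without block, limma adjusted p = 0.144 without and 0.0214 with the block). When 1 batch was left out with the block, 2 of 7 fits still called BIC1 (adjusted p 0.0294 to 0.130).

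BIC2 moved up in 7 of 7 batches too, by 0.21 to 1.54, with a mean effect of 0.85 ± 0.17 (SE; limma, adjusted p = 0.262 without and 0.0458 with the block). Its log2 level averaged 7.03 ± 0.20 on KAR1 and 6.40 ± 0.26 on water in ga1-3 (SD, n = 3 each), and 6.39 ± 0.18 on KAR1 and 5.31 ± 0.49 on water in wild type (SD, n = 4 each). The wild type groups of BIC2 did not overlap, as for 0.528% of all probe sets. In ga1-3 the lowest KAR1 array, 6.90, lay above the highest water array, 6.69, as for 1.93% of all probe sets. The call of BIC2 held in 1 of the 7 fits with a batch left out (adjusted p 0.0487 to 0.166).

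PCH1, whose protein holds phytochrome B in its active form, had the largest mean KAR1 effect of the 10 light genes. It stood at 7.79, 7.25 and 7.34 (log2) in ga1-3 batches A to C on KAR1, against 6.27, 6.62 and 6.30 on water. In wild type batches A to D PCH1 stood at 6.66, 7.21, 7.27 and 7.17 on KAR1, against 5.82, 6.54, 6.06 and 5.71 on water. No water array reached the KAR1 arrays of its genotype, as for 1.93% of all probe sets in ga1-3 and 0.528% in wild type. Batch B had the smallest difference in both genotypes. The effect was 1.06 ± 0.16 (SE; limma, adjusted p = 0.0637 without and 0.0424 with the block; 1 of 7 fits with a batch left out called it, adjusted p 0.0407 to 0.141). FHL, which carries phytochrome A into the nucleus in company with FHY1, lay under an intensity of 16 on every array.

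COR27 and COR28, light-regulated proteins that bind HY5 and are degraded through COP1, had levels that differed the other way. COR28 stood at 9.48, 9.10 and 9.10 (log2) in ga1-3 batches A to C on KAR1, against 10.09, 9.58 and 9.66 on water. In wild type batches A to D it stood at 9.40, 9.64, 9.26 and 9.45 on KAR1, against 9.81, 10.01, 9.74 and 10.38 on water. COR28 was lower on KAR1 in 7 of 7 batches, as 2.14% of all probe sets were, by -0.93 to -0.37. The mean for COR28 was -0.55 ± 0.12 (SE, limma adjusted p = 0.419 without and 0.0424 with the block). With a batch left out, 1 of 7 fits called it (limma, adjusted p 0.0418 to 0.159). COR27 was lower in 6 of 7 batches and higher by 0.13 in wild type batch B, with a mean of -0.67 ± 0.18 (limma, adjusted p = 0.697 without and 0.107 with the block), and did not pass.

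Of the HY5 targets, UGT78D1 and UGT78D2, which add sugars to flavonols, did not pass for KAR1. UGT78D1 was above water in 6 of 7 batches (mean 0.79 ± 0.41; limma, adjusted p = 1 without and 0.141 with the block). UGT78D2 was above water in 7 of 7 (mean 0.68 ± 0.35; limma, adjusted p = 1 without and 0.101 with the block). DFR, an enzyme of anthocyanin synthesis, lay under 16 on every array. CUL4, the scaffold of the ligase that works with COP1, had a mean difference of -0.01 ± 0.14 and was above water in 3 of 7 batches.

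**Figure D3:**
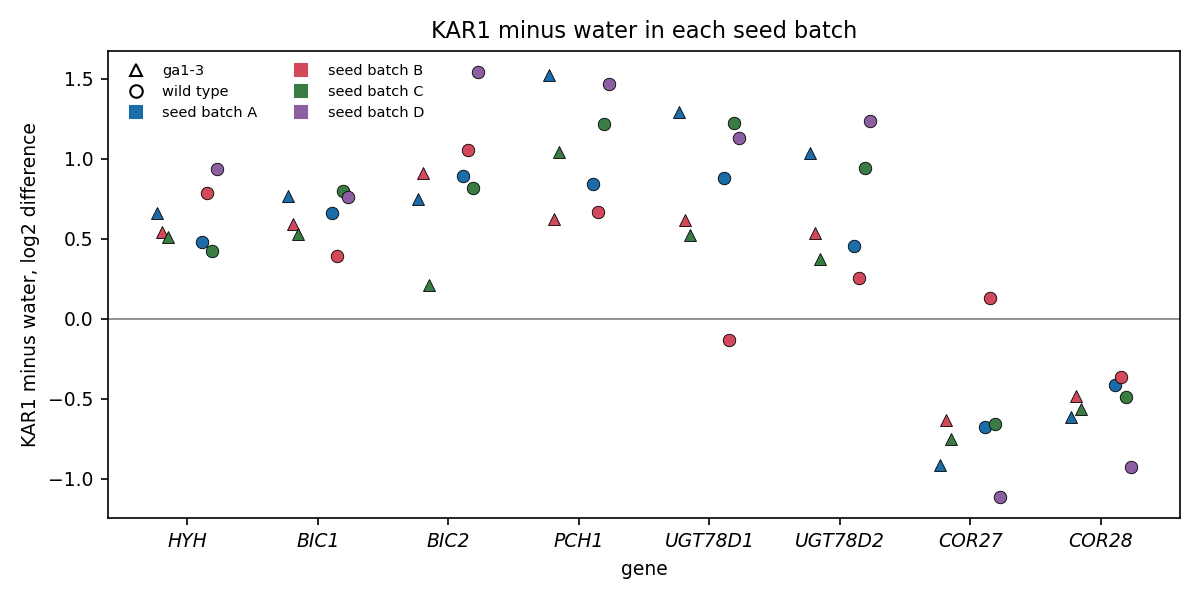
The plot gives KAR1 minus water (log2, vertical axis) in each seed batch for HYH and the measured light genes above an intensity of 16 other than CUL4, with triangles for ga1-3, circles for wild type and a colour per batch letter. HYH, BIC1, BIC2, PCH1 and UGT78D2 have all 7 points above 0, COR28 has all 7 below 0, and COR27 and UGT78D1 each have wild type batch B on the other side of 0.

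None of these 10 genes had a KAR1 effect that passed as different between genotypes (limma, adjusted p = 1 for each). Neither did HYH or any other of the 22746 probe sets, with or without the block. Between genotypes, some of the 10 genes were called where HYH was not. BIC1 was higher in ga1-3 than in wild type by 0.65 ± 0.16 on water (limma, adjusted p = 0.00768) and by 0.63 ± 0.16 on KAR1 (0.00897). With the cluster as block the estimates for BIC1 were 0.58 and 0.55. Only the second cluster holds both genotypes, with 1 ga1-3 harvest. Genotype estimates with this block therefore do not measure the spread between ga1-3 harvests. BIC2 was higher in ga1-3 by 1.09 ± 0.24 on water (limma, adjusted p = 0.00408), and differed by 0.64 ± 0.24 on KAR1 (0.0534). UGT78D1 was higher in ga1-3 by 2.71 ± 0.58 on water and 2.74 ± 0.58 on KAR1 (limma, adjusted p = 0.00359 and 0.00312), and UGT78D2 by 1.55 ± 0.49 and 1.48 ± 0.49 (0.0282 and 0.0337). The call of UGT78D2 on water was lost without wild type batch A or D or without ga1-3 batch B or C (limma, adjusted p = 0.0677, 0.0681, 0.120 and 0.120), and that on KAR1 without the KAR1 arrays of the same batches (0.0835, 0.0609, 0.127 and 0.111). With the cluster as block UGT78D1 was at 1.54 and 1.57 (adjusted p = 0.0952 and 0.0857) and UGT78D2 at 0.68 and 0.61 (0.414 and 0.470). On water 4 of the 10 genes were called as higher in ga1-3 and 0 as lower, beside 19.7% and 16.8% of all probe sets, so that the 4 of 10 called in either direction is near the 36.5% over all probe sets. The other 6, among them PCH1, COR27 and COR28, were not called on water, as HYH was not. On KAR1 3 were called as higher and 0 as lower, beside 19.3% and 18.3%. For the mean over treatments 5 were called as higher and 0 as lower, beside 29.5% and 25.6%. That mean counts the KAR1 and water arrays of a seed batch as independent, which they are not, so its p-values are too small. CUL4 was called in that mean alone. The comparisons on water and on KAR1 take their spread from the same fit, with 10 residual degrees of freedom over 14 arrays of 7 harvests. Their p-values may therefore be too small as well.

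The tissue was checked against its markers as far as they were named. Of 15 seed storage and maturation genes 1 was measured, LEA4-5, a protective protein of late embryo development, at a log2 intensity of 12.51 ± 0.08 on KAR1 and 12.53 ± 0.07 on water in ga1-3 (SD, n = 3 each) and 12.92 ± 0.15 and 12.92 ± 0.10 in wild type (SD, n = 4 each). Its KAR1 effect was -0.01 ± 0.06 (limma, adjusted p = 1), and ga1-3 minus wild type was -0.41 ± 0.09 on KAR1 (limma, adjusted p = 0.00321) and -0.39 ± 0.09 on water (0.00435). Of 4 endosperm genes 1 was measured, AGL62, at no more than 2.54 on any array, and of 6 green seedling genes none was measured. IAA31, the neighbour of HYH on the chromosome, lay at no more than 2.38 on any array, and RBL14 was not named, so no reading of a neighbour above 16 stands beside that of HYH.

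The genes whose pattern was most like that of HYH were ranked by Pearson r over the 14 arrays, among 5826 single-gene probe sets with a mean log2 intensity of 4 or more. Arrays share treatment, seed batch and cluster, so r is a description of these arrays. On log2 intensities the 5 highest were AT1G25275 (r = 0.868), AT1G12250 (0.859), EMB2786 (0.808), AT3G60290 (0.781) and AT3G14880 (0.774), and the 3 lowest AT3G58690 (-0.853), AT3G16850 (-0.845) and AT1G21680 (-0.830). After the mean of each genotype was subtracted, the highest were AT1G07440 (0.911), AT3G21400 (0.910), AT1G13930 (0.898), AT1G25275 (0.891) and AT1G12250 (0.865), and the lowest AT3G01350 (-0.919), AT5G65530 (-0.906) and AT1G33790 (-0.872). AT1G25275 and AT1G12250 stand in both rankings. AT1G07440 reached the minimum mean through its wild type values. Its ga1-3 values other than batch A on KAR1 lay under 4, so its r rests partly on low signals.

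AT1G25275 was the gene that ranked first on log2 intensities. It stood at 9.92, 9.84 and 9.60 (log2) in ga1-3 batches A to C on KAR1, against 8.65, 8.83 and 8.96 on water. In wild type batches A to D it stood at 10.29, 10.10, 10.13 and 9.49 on KAR1, against 9.82, 9.47, 9.36 and 8.60 on water. Like HYH, AT1G25275 had its highest wild type value in batch A on both treatments and its lowest water value in batch D. Its wild type groups overlapped while those of ga1-3 did not, the latter as for 1.93% of all probe sets. The harvests stood in the same order for both genes in wild type on water and in ga1-3 on KAR1, and in another order elsewhere. In ga1-3 on water batch A was the lowest for AT1G25275 and the highest for HYH. In wild type on KAR1 batch D was the lowest for AT1G25275 and batch C for HYH. The KAR1 effect of AT1G25275 was 0.83 (limma, adjusted p = 0.382 without and 0.0214 with the block). It was higher in 7 of 7 batches, as 2.26% of all probe sets were.

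Among the other genes of the rankings, AT1G12250 had a KAR1 effect of 0.40 and AT3G21400 of 0.21. Each was higher in 7 of 7 batches, as 2.26% of all probe sets were, and neither passed with the block (limma, adjusted p = 0.0915 for both). AT3G60290 had an effect of 1.86, and AT3G14880 one of 0.68, close to the 0.61 of HYH (limma with the block, adjusted p = 0.0254 and 0.0214). AT1G07440 had an effect of 1.01 in wild type. All ga1-3 values of AT1G07440 except batch A on KAR1 lay under an intensity of 16. No difference between genotypes is therefore given for it, and its mean effect of 1.09 (limma with the block, adjusted p = 0.0554) rests partly on low signals. The 6 genes of opposite pattern were lower on KAR1 in 7 of 7 batches, as 2.14% of all probe sets were. Their means were -0.38 to -0.26, and none of them passed. All genes of the rankings were picked by r with HYH over these same arrays, which differ by treatment. Their directions on KAR1 therefore follow in part from that choice and are not independent support.

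**Figure D4:**
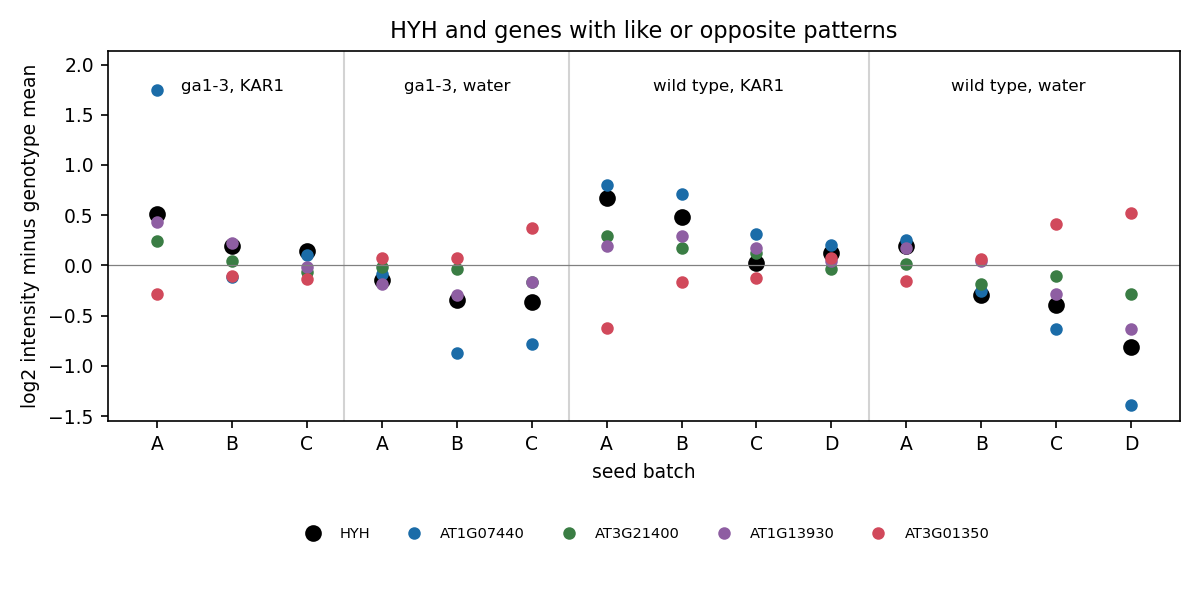
The plot gives log2 intensity minus the mean of each genotype (vertical axis) on the 14 arrays for HYH (black), AT1G07440, AT3G21400, AT1G13930 and AT3G01350, with the arrays by group and seed batch along the horizontal axis. AT1G07440 reaches further from 0 than HYH in ga1-3 batch A on KAR1 and in wild type batch D on water, and AT3G01350 lies on the other side of 0 from HYH on every array except that of wild type batch D on KAR1.

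The correlations of the measured light genes with HYH were further from 0, in either direction, once genotype was taken out. With the genotype mean subtracted, r with HYH over 14 arrays was 0.845 for BIC2, 0.763 for BIC1, 0.680 for PCH1, -0.644 for COR28, -0.344 for COR27 and -0.366 for CUL4. On log2 intensities as measured it was 0.601 for BIC2, 0.518 for BIC1, 0.620 for PCH1, -0.588 for COR28, -0.296 for COR27 and -0.329 for CUL4. UGT78D1 and UGT78D2 had 0.107 and 0.214 with the genotype mean subtracted, and -0.0223 and 0.0775 as measured.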

How the data were processed

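Each array gave 1 value per probe set, an intensity on a linear scale that the authors made with GCRMA, per the submitters' processing notes; its version and the set of arrays normalized together are not given in the sources used here. Input was 7 ug of RNA per array, turned into biotin-labelled cRNA by 1 round of 3' amplification, per the labels' protocols. Arrays count no molecules, so their number and signal limit the precision; array medians lay between 10.4 and 12.6 and arrays correlated at 0.943 to 0.999. Of 22810 probe sets 64 controls were left out. Gene names came from the platform annotation, which gives 13513 probe sets 1 gene, 503 several and 8730 none; 13436 of the first matched a locus of the TAIR10.1 gene table.

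The log2 of the deposited intensity was fitted with limma 3.58.1 in R 4.3.3 (4 group means over 14 arrays, eBayes with trend and robust, two-sided, Benjamini-Hochberg over 22746 probe sets), and the fit was tested on simulated data. Exact permutations ran over seed batches in Python 3.11.15. The labels say that letters name seed harvests, which pairs water and KAR1 arrays of 1 genotype; their deviations from the group means correlated at 0.507 to 0.855. Whether arrays of a batch came from separate dishes is not stated. P-values of KAR1 effects with the block, and of the sign flips, measure how the KAR1 minus water difference varied between harvests. Those without the block pool the spread of the 14 arrays within groups and take paired arrays as independent. Exchange of the genotype labels measures the spread between harvests.

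Alternatives were the seed batch as block, a floor of 16, both together, a minimum mean log2 of 4, plain eBayes, array weights, quantile normalization, the cluster of arrays (3 clusters by average linkage on 21 spiked-in controls) as block, and arrays or batches left out. Genes were named by rule: HYH; all measured members of its module, of karrikin signalling and of its neighbours; up to 6 called members of each other list and up to 3 with the smallest p; and the genes of highest and lowest r with HYH. HYH, the lists and the tests were chosen with earlier results of these data known. The rise of HYH, BIC1, BIC2 and PCH1 is therefore not independent support, and neither are the differences of COR27, COR28, UGT78D1 and UGT78D2. Promoter and protein sequences were not used here.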

Additional observations from a re-analysis of the deposited data

Results flagged for a closer look

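Among 72 groups of 4 values, 2 had 1 array apart from the others by Dixon's test at the 95% level, which chance gives in about 1 of 20 groups. PCH1 on wild type batch A on KAR1 was 6.66 (log2), with the other 3 wild type arrays on KAR1 up to 7.27 and the gap at 0.837 of the range. AT3G60290 on wild type batch B on KAR1 was 7.23, with the others up to 7.92 and the gap at 0.932 of the range. The cause of either was not tested. For HYH in wild type this share was 0.290 on KAR1, 0.490 on water and 0.290 for the paired differences, against a critical value of 0.829, so no array stood apart.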

How the results depend on the processing

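The KAR1 effect on HYH kept its sign under every setting run. Averaged over genotypes it was 0.61 without block and passed the adjusted threshold with the replicate block (0.61, adjusted p = 0.0386), with the replicate block and a floor of 16 together (0.61, 6.57e-10) and with array weights (0.67, 0.0235). It did not pass with the cluster as block (adjusted p = 0.0509). Without any block it did not pass with the floor (0.369), the minimum level (0.283), plain eBayes (0.563), quantile normalization (0.63, 0.826), wild type batch A left out (0.64, 0.227) or ga1-3 batch A left out (0.59, 0.850). With the replicate block it passed without wild type batch A (0.64, 0.0407) and in none of the 6 other fits that left out a batch. With 1 array or batch left out it lay between 0.53 and 0.70. In the fit with replicate block and floor the total degrees of freedom were 113730, so its p-values rest on a spread pooled over probe sets that sit mostly at the floor. That fit also called wild type (0.66, adjusted p = 3.30e-06) and ga1-3 (0.57, 0.00197) alone; with arrays left out these lay between 0.49 and 0.83 and between 0.46 and 0.64. The block changed no other call of HYH.

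The other differences of HYH changed sign between settings, and with the cluster as block the 95% interval of ga1-3 minus wild type was above 0 on water (0.02 to 0.81) and for the mean (0.04 to 0.71), with neither passing after adjustment. With arrays left out, the KAR1 effect in ga1-3 minus that in wild type lay between -0.26 and 0.0781 (0.00997 without wild type batch D under the block). On water, ga1-3 minus wild type was 0.22 with array weights, 0.42 with the cluster as block and 0.14 without wild type batch A, and -0.19 to 0.14 with 1 array left out. On KAR1 it was 0.33 with the cluster as block and 0.00288 without wild type batch A, and -0.23 to 0.00288 with 1 array left out. For the mean it was 0.0846, 0.38 and 0.0732 under these 3 settings, and -0.15 to 0.0152 with 1 array left out. The cause was not tested.

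Of the 10 measured light genes, those called higher for the mean KAR1 effect numbered 0 without block, 3 with the block, 1 with the floor, 2 with the minimum level, 5 with block and floor, 3 with array weights, 1 with quantile normalization and 1 with the cluster as block. Those called lower numbered 0 without block, 1 with the block, 2 with block and floor and 1 with array weights. In ga1-3 against wild type 2 were higher on water with the cluster as block and 2 lower with array weights, and 1 was higher on KAR1 with the cluster as block, against 4, 0 and 3 without. Over all probe sets the mean KAR1 effect had 5 calls without block, 86 with it, 12 with the floor, 16 with the minimum level, 967 with block and floor, 1 with plain eBayes, 90 with array weights, 27 with the cluster as block, 3 without wild type batch A and 13 without ga1-3 batch A. With the cluster as block, ga1-3 minus wild type was 0.22 for COR27 and 0.0786 for COR28. The KAR1 effect of CUL4, -0.01 in the fit reported, was 0.0174 with array weights, 0.0274 under the block without wild type batch B, and -0.0910 to 0.0698 with 1 array left out. That of LEA4-5 was 0.00420 without wild type batch C and 0.000670 without ga1-3 batch C under the block, and -0.0361 to 0.0202 with 1 array left out. The minimum level moved the median of all probe sets between genotypes to 0.14. The correlations of the named genes with HYH, taken again without wild type batch A, a choice made after seeing the data, lay between 0.781 and 0.930 for the like genes and -0.897 and -0.780 for the opposite ones. Seed batches are nested in genotype, so the block gives no genotype difference.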
